A study of Mus musculus with 5 samples.

Results

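Natural killer (NK) cells were sought among cells dissociated from the mouse dentate gyrus, the input layer of the hippocampus. A barcode, the tag of 1 droplet, was counted as NK when it held at least 500 unique transcript molecules (UMIs) and at least 300 genes, when at least 2 of the 7 genes Ncr1, Klrb1c, Klre1, Gzma, Nkg7, Eomes and Klrd1 had at least 1 UMI, and when the T cell genes Cd3e, Cd3d and Cd3g, the B cell genes Cd79a and Ms4a1, the microglial gene Tmem119 and the endothelial gene Cldn5 were all at 0. The members were thus chosen by the measured counts of these genes, whose presence or absence is no finding. The rule found 222 barcodes among the 63342 deposited for dissociated cells, and 95918 barcodes were deposited over the 5 libraries of the series. Of these, 111 came from CFC-14d and 111 from Random-14d.

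CFC-14d is the library of wild-type mice taken 14 days after CFC training, in which a foot shock is paired with a context, and Random-14d is the library of wild-type mice taken 14 days after random foot shocks. Both groups had therefore received shocks, and the labels give 10 mice a group but no strain, age or sex. Each group had 1 library, and the labels do not say how the mice were combined in it, so no difference between the libraries could be set against a spread between animals and no p-value is given. Intervals are 95% intervals and cover counting error only. The series also holds 3 libraries of nuclei, labelled WT-naive, WT-CFC and KO-CFC.

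NK cells are innate lymphocytes that kill infected or altered cells without rearranged antigen receptors. They carry granules of perforin and granzymes, read their targets through paired activating and inhibitory receptors, and secrete interferon gamma and chemokines. In mice the circulating NK cell and a resident relative, the type 1 innate lymphoid cell, share NCR1 and NK1.1 but differ in granule content and homing receptors. In the healthy brain such cells are rare and lie mostly in the meninges, the choroid plexus and the vessels.

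The genes that stood highest in the NK barcodes were those of receptors and granules, and the level is in CPM, the counts scaled to the same total of UMIs, over the 222 barcodes against all other barcodes of the 2 libraries. As a description of what the rule selected, the Ly49 receptor genes Klra8 and Klra3 stood 965-fold and 769-fold above the other barcodes, and the perforin gene Prf1 stood 541-fold above them. The serine protease gene Gzma stood 536-fold above, at 4770 CPM, and the chemokine gene Ccl5 169-fold above, at 5007 CPM. Klra8, Klra3, Klra4, Klra7 and Klra9 are near-identical copies whose reads may be split between them, so their single values are uncertain.

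Promoters of 4 of these genes are shown because they encode the receptor and the granule proteins on which the results below turn. They come from RefSeq, build GRCm38.p6, run from 250 bases before to 50 after an annotated start and are written 5′ to 3′ on the gene's strand. Capitals mark TGTGGT or its complement ACCACA, the letters of the RUNX motif.
Ncr1, chr7:4337465-4337764, plus strand: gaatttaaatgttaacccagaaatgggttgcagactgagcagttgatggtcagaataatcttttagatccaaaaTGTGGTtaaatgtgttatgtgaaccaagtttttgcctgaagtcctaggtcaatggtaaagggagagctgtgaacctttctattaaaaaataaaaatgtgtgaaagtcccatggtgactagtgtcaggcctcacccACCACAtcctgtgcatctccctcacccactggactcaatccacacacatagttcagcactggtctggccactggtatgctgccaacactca
Prf1, chr10:61297586-61297885, plus strand: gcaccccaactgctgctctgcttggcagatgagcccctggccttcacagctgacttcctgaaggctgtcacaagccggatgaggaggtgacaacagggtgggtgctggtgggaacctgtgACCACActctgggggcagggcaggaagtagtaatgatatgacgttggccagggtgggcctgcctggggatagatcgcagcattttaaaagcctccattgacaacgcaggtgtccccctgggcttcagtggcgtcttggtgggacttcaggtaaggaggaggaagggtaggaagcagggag
Gzma, chr13:113100932-113101231, minus strand: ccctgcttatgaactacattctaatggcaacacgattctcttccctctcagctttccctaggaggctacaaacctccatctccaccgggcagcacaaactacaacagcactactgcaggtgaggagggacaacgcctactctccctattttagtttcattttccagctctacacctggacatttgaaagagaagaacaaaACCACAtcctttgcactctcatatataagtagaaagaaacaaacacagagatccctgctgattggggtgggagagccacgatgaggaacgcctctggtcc
Gzmb, chr14:56262285-56262584, minus strand: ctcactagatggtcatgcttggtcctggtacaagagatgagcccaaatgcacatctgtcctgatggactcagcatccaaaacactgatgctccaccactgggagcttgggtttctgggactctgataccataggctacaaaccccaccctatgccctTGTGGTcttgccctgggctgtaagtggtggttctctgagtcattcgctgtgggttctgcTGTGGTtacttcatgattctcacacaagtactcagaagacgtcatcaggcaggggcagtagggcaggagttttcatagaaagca

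Of the 20 genes highest in the NK barcodes, 15 had a promoter in that table, and the letters TGTGGT stood on either strand in 11 of their 19 promoters, those of 10 genes. None of the 5 Klra genes among them held the letters in this window. Over all promoters of the same length, 16.8% held them. The genes include the rule genes Ncr1, Klrb1c, Klre1, Gzma and Nkg7, which the rule selected. The overlapping windows of Ncr1 hold the same matches and were counted separately, so the shares are a description. The letters GGTGTGA of the T-box motif stood in 2 of the 19 promoters of these genes against 3.98% of all promoters, and CAGGAAG of the ETS motif in 4 of the 19 against 13.3%. No match overlapped a match of another of these 3 motifs. A match is a description of the letters and not a binding site.

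How many of the 7 rule genes a barcode held differed between the libraries. In CFC-14d, 50 members held exactly 2 rule genes, 8 held 3, 10 held 4, 19 held 5, 19 held 6 and 5 held 7. In Random-14d the corresponding numbers were 8, 7, 28, 31, 26 and 11. Members with 4 or more rule genes were thus 53 in CFC-14d and 96 in Random-14d, while members with only 2 or 3 were 58 and 15. These numbers follow from the rule and are a description.

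**Figure D1:**
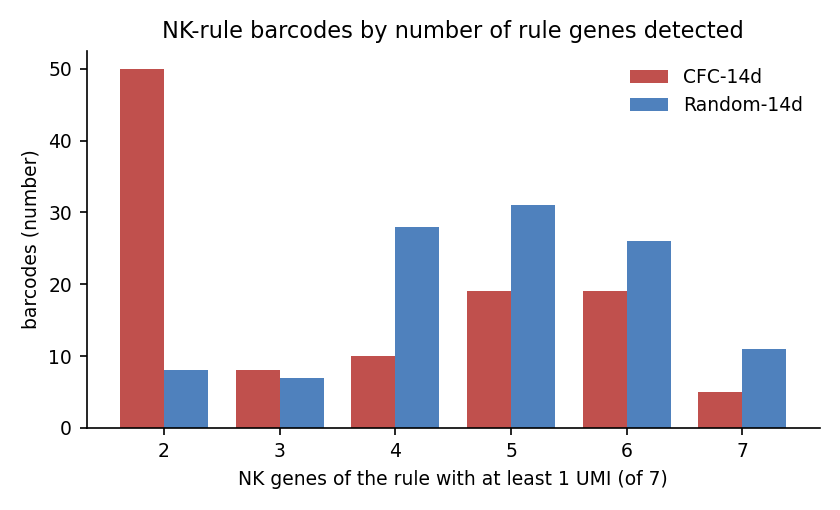
Number of NK-rule barcodes in each library (vertical axis) by how many of the 7 rule genes had at least 1 UMI (horizontal axis). CFC-14d has its peak at 2 rule genes, with 50 barcodes, and Random-14d at 5, with 31.

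Granule transcripts were frequent in the CFC-14d members at the threshold. Of its 50 members with exactly 2 rule genes, 35 held Gzma, 29 held Nkg7, a granule membrane protein, and 20 held exactly that pair. Klrd1 was held by 10, Ncr1 by 8 and Klrb1c and Klre1 by 6 each. In Random-14d 1 of 8 held Gzma and none held that pair. Just outside the rule, with 1 rule gene and none of the excluded genes, lay 573 barcodes of CFC-14d and 338 of Random-14d, of which 154 and 46 held Gzma and 115 and 51 held Nkg7.

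Gzma and Nkg7 were also detected in more barcodes of another cell type in CFC-14d, microglia, which should lack both. Among barcodes of a microglia gate, Gzma was detected in 1.02% of CFC-14d and 0.342% of Random-14d barcodes, and Nkg7 in 1.05% and 0.382%. Ccl5, which was not in the rule and is not read as background here, was detected in 3.63% and 1.51%. Those gates held 12006 and 12578 barcodes with a median of 2374 and 2137 UMIs, against 1996 and 1984 UMIs in the members. The part of background RNA of Gzma and Nkg7 in the members at the threshold was not tested.

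The label was checked with 12 NK genes that the rule did not use: Klrk1, Klra4, Klra8, Klrc2, Prf1, Gzmb, Ccl5, Il2rb, Txk, Sh2d1b1, Tbx21 and Cd160. Among members with 4 or more rule genes, 49 of 53 in CFC-14d and 91 of 96 in Random-14d held at least 3 of the 12, with a median of 7 and 6. Among members with 2 or 3 rule genes, 10 of 58 and 9 of 15 did, with a median of 1 and 3. None of the 12 was found in 18 members of CFC-14d and 3 of Random-14d, all of them with 2 or 3 rule genes. The data therefore go with the name NK for the barcodes with 4 or more rule genes in both libraries. They go against it for most CFC-14d members with 2 or 3. Some of the 12 genes are shared with T cells. Barcodes of a T cell gate held 14.9% and 17.2% of all Klrk1 counts in CFC-14d and Random-14d, 19.6% and 22.1% of Ccl5 and none of Klra8. Type 1 innate lymphoid cells had no gate, so the name NK does not separate NK cells from them.

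Markers of other cell types were frequent in those weaker members. At least 3 of 6 microglial markers stood in 18 of the 58 CFC-14d members with 2 or 3 rule genes, at least 3 of 4 choroid plexus markers in 14, at least 3 of 6 oligodendrocyte markers in 10 and at least 3 of 6 neutrophil markers in 5. In its 53 members with 4 or more rule genes the counts were 6, 9, 1 and 1. In Random-14d all 111 members together gave 5, 6, 3 and 0. The summed level of the 6 microglial markers was 2620 CPM in the weaker CFC-14d members and 703 CPM in the stronger ones, against 643 CPM in the stronger members of Random-14d. Tmem119 was at 0 by the rule. The 5 erythroid markers, 4 of them haemoglobin genes, summed to 40625 CPM in the weaker and 4504 CPM in the stronger members of CFC-14d. In Random-14d the order was the reverse, with 7494 CPM in the weaker and 88664 CPM in the stronger members, among them barcodes with 80.7% and 78.0% haemoglobin. At least 3 of 12 T cell markers were held by 1 member of CFC-14d and 5 of Random-14d. In the strong members the 12 T cell markers summed to 487 and 691 CPM, with Cd4, Cd8a, Cd8b1 and Cd5 at 0 in both libraries. Cd3e, Cd3d and Cd3g, also among the 12, were at 0 by the rule, which limits both T cell values. No member held 3 markers of B cells, type 2 innate lymphoid cells, basophils or mast cells, plasmacytoid dendritic cells, fibroblasts or platelets. The B cell markers Cd79a and Ms4a1 were at 0 by the rule.

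**Figure D2:**
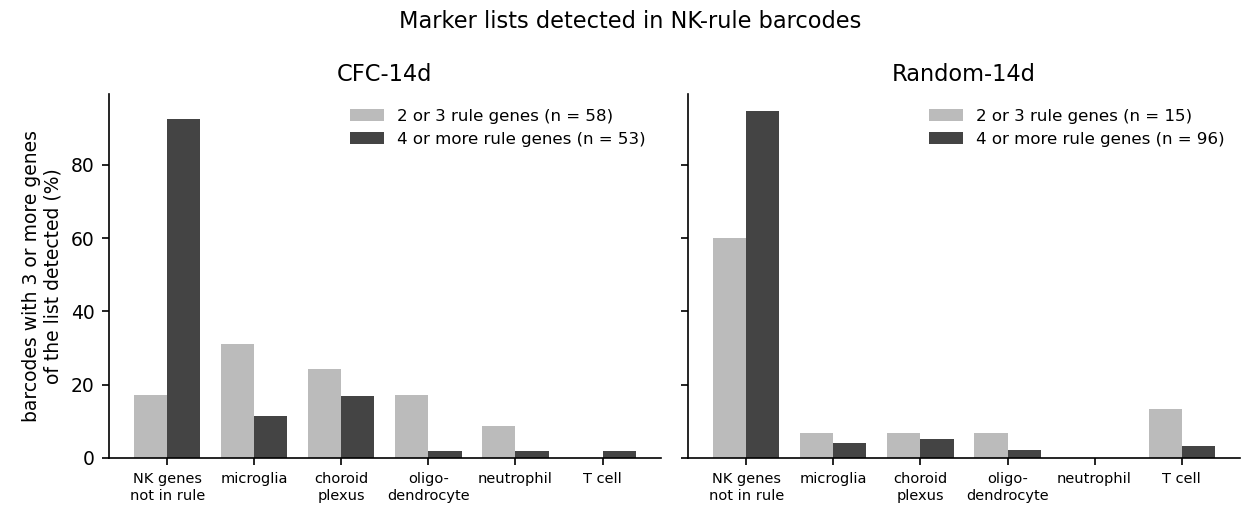
Share of NK-rule barcodes with at least 3 detected genes of a marker list (vertical axis, percent), for members with 2 or 3 rule genes in light grey and 4 or more in dark grey, in each library. NK genes outside the rule stand in 17.2% of the weaker CFC-14d members and in over 90% of the stronger members of either library (92.5% and 94.8%).

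The results that follow are therefore given for the 149 barcodes with 4 or more rule genes, here called strict NK barcodes, and for all 222 where a count of all members is meant. This grouping was made after the values were seen. The strict barcodes of CFC-14d had a median depth of 2450 UMIs and those of Random-14d one of 1986.5. The largest of them held 44029 UMIs in CFC-14d, 38.8% from the choroid plexus gene Ttr, and 28527 UMIs in Random-14d, 35.1% from Ttr. The share of mitochondrial UMIs reached at most 9.87% in any member. The libraries shared 282 barcode sequences, of which 1 was a member in CFC-14d and none was a member in both.

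The strict NK barcodes fell into a granzyme A-positive and a granzyme A-negative kind in both libraries. Gzma counts were at 0 in 11 of 53 barcodes of CFC-14d, between 1 and 4 in 6, and at 5 or more, up to 70, in 36. In Random-14d they were at 0 in 24 of 96 barcodes, between 1 and 4 in 3, and at 5 or more, up to 79, in 69. Few barcodes lay between the extremes. The Gzma-negative share was 20.8% (interval 10.8 to 34.1) in CFC-14d and 25.0% (16.7 to 34.9) in Random-14d. The grouping uses Gzma, which is one of the rule genes, so a Gzma-negative barcode had to hold 4 of the other 6. Rule genes are therefore not read between the groups, and the values below are a description of barcodes within a library. At least 3 of the 12 NK genes outside the rule were held by 10 of 11 and 21 of 24 Gzma-negative barcodes.

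Gzma-negative barcodes held genes of tissue residence. Cxcr6, a chemokine receptor of resident lymphocytes, had 10 UMIs in 6 of the 11 Gzma-negative barcodes of CFC-14d and none in its 36 Gzma-positive barcodes. In Random-14d it had 22 UMIs in 12 of 24 and none in 69. Cxcr6 was thus at least 14.2-fold and at least 21.3-fold higher per UMI, taking 3 counts over the group as the floor and leaving aside counting error in the 10 and 22 counts. With that error the intervals of the log2 ratio begin at 3.26 and 3.99. Cxcr3, the receptor of interferon-induced chemokines, was found in 6 of 11 and 11 of 24 Gzma-negative barcodes and in 0 of 36 and 3 of 69 Gzma-positive ones. Itga1, the alpha chain of a collagen-binding integrin, was found in 4 of 11 and 8 of 24 against 2 of 36 and 4 of 69.

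The same barcodes held lymphotoxin and XCL1. Ltb, which encodes lymphotoxin beta, stood at 709 CPM in Gzma-negative and 13.8 CPM in Gzma-positive barcodes of CFC-14d, and at 596 and 77.0 CPM in Random-14d. Xcl1, a chemokine that draws cross-presenting dendritic cells, was found in 11 of 11 Gzma-negative barcodes of CFC-14d and 23 of 24 of Random-14d. In Gzma-positive barcodes it was found in 8 of 36 and 20 of 69. Its log2 ratio, negative over positive, was 3.18 (2.66 to 3.75) and 1.88 (1.57 to 2.21). Inpp4b, a phosphoinositide phosphatase, was found in 10 of 11 and 15 of 24 against 5 of 36 and 4 of 69. The membrane protein gene Cd7 and the adhesion receptor gene Cd226 were 2.33 and 2.71 higher on the log2 scale in CFC-14d and 2.36 and 1.92 higher in Random-14d. The T cell receptor constant gene Trbc2 stood at 1.79 (1.12 to 2.47) in Random-14d, with 43 and 36 counts. In CFC-14d it stood at -0.38 (-2.97 to 1.20), with 3 and 19. The genes of the Gzma-negative barcodes were not set beside those of T cells, and a part of T cells in this group was not tested.

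Gzma-positive barcodes held the genes of circulating, mature NK cells. S1pr5, a receptor for egress into blood, was found in 11 of 36 Gzma-positive barcodes of CFC-14d and 18 of 69 of Random-14d, Klrg1, an inhibitory receptor of mature NK cells, in 9 of 36 and 14 of 69, and the mast cell protease gene Cma1 in 13 of 36 and 24 of 69. None of S1pr5, Klrg1 and Cma1 had a UMI in the 11 and 24 Gzma-negative barcodes, which at these numbers does not show that it is absent. The transcription factor gene Klf2 stood at 1667 CPM in Gzma-positive against 207 CPM in Gzma-negative barcodes of CFC-14d and at 1555 against 238 CPM in Random-14d. Irf8, another transcription factor of the lineage, stood at 512 against 88.7 CPM and at 467 against 29.8 CPM. Prf1 stood at 851 against 236 CPM and at 785 against 74.5 CPM.

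Of the NK transcription factors, Tbx21, which encodes T-bet and was not in the rule, was found in 3 of 11 and 7 of 24 Gzma-negative barcodes against 14 of 36 and 18 of 69 Gzma-positive ones. Its log2 ratio was 0.14 (-2.02 to 1.62) in CFC-14d and 0.02 (-1.52 to 1.24) in Random-14d. Tox, a factor of innate lymphoid development, was 2.24 (0.79 to 3.72) and 2.68 (1.37 to 4.25) higher in Gzma-negative barcodes on the log2 scale.

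Read by list, the summed level of the 13 genes of type 1 innate lymphoid cells and residence was 2631 CPM in Gzma-negative and 539 CPM in Gzma-positive barcodes of CFC-14d, a log2 ratio of 2.28 (1.83 to 2.74). In Random-14d it was 2802 and 672 CPM, a log2 ratio of 2.06 (1.73 to 2.39). Of the 4 members of that list with at least 10 counts in each library, 4 were higher in Gzma-negative barcodes in both. Cd69, also on that list, went the other way in Random-14d, with 2 and 27 counts and a log2 ratio of -1.92 (-5.33 to -0.22). In CFC-14d it had 1 and 2 counts and was left out of the tally. Of the 10 mature NK genes, all with at least 10 counts, 9 were lower in both libraries, with a median log2 ratio of -2.01 in CFC-14d and -2.50 in Random-14d. Their summed level had a log2 ratio of -0.58 (-0.94 to -0.25) in CFC-14d and -2.74 (-3.32 to -2.24) in Random-14d. The exception was Gzmb. Among the genes tallied, Cxcr6 had counts only in Gzma-negative barcodes, and Klrg1, S1pr5 and Cma1 only in Gzma-positive ones. Their direction followed from passing the count filter, so both tallies are a description. Over the 2677 genes with at least 10 counts in each library, 835 were higher and 646 lower in both libraries, and the median log2 ratio was 0.19 and -0.05. Of the genes with at least 100 counts, 40.1% of 217 in CFC-14d and 23.4% of 299 in Random-14d differed 1.5-fold or more between the groups in either direction. Genes higher in Gzma-negative barcodes made up 28.1% of those tested in CFC-14d and 8.03% in Random-14d. The Gzma-positive group of CFC-14d includes the barcode of 44029 UMIs, which raises its ratios, and these shares were not taken without it. Without the largest barcodes, the residence list stood at 2.16 in CFC-14d and 2.33 in Random-14d. The mature NK list then stood at -0.99 and -2.80. Activating receptors moved from -0.13 to -0.63 in CFC-14d and from -0.28 to -0.38 in Random-14d.

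**Figure D3:**
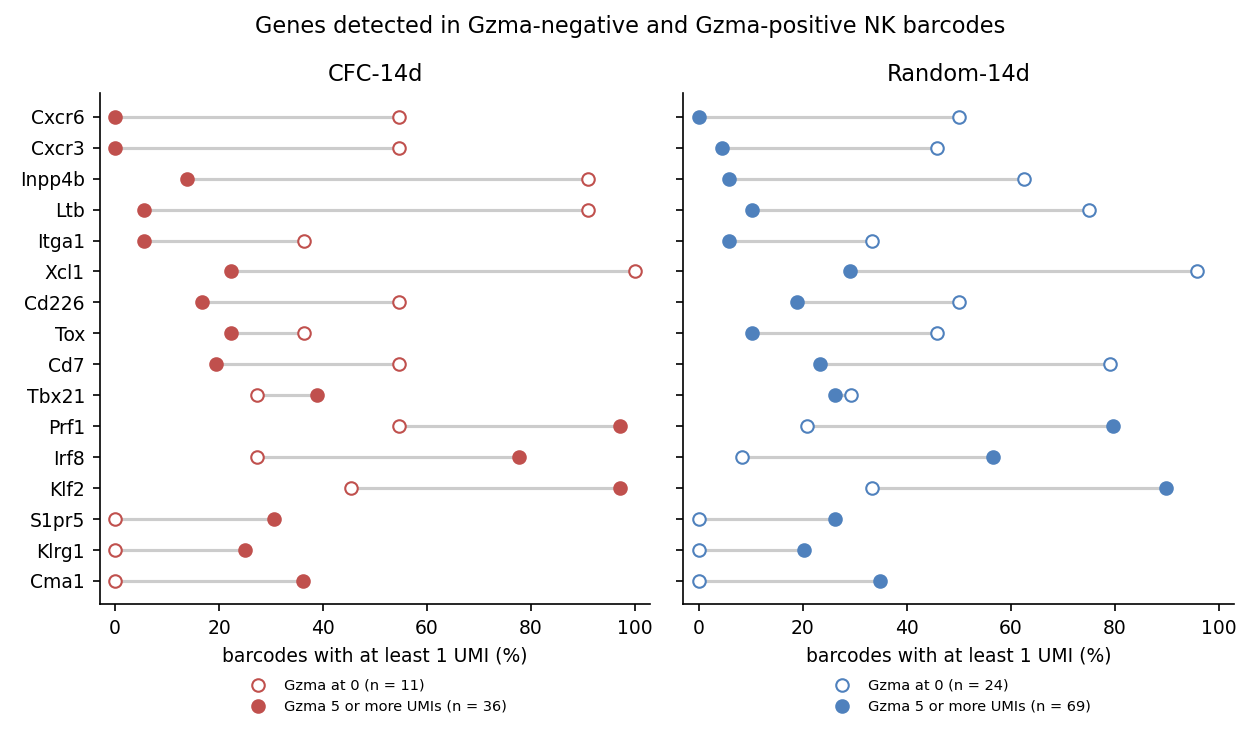
Share of strict NK barcodes with at least 1 UMI of a gene (horizontal axis, percent), for barcodes with Gzma at 0 (open circles) and with 5 or more Gzma UMIs (filled circles), in each library. Cxcr6 stands at 54.5% and 50.0% of Gzma-negative barcodes and at 0 in Gzma-positive ones, and Cma1 at 36.1% and 34.8% of Gzma-positive barcodes and at 0 in Gzma-negative ones.

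The share of NK barcodes in the 2 libraries depended on which members were counted. All members made up 0.356% (0.293 to 0.429) of the 31150 barcodes at depth in CFC-14d and 0.385% (0.317 to 0.464) of the 28810 in Random-14d, a log2 ratio of -0.11 (-0.51 to 0.28). Strict barcodes made up 0.170% (0.127 to 0.222) and 0.333% (0.270 to 0.407), a log2 ratio of -0.97 (-1.48 to -0.47). Requiring the T cell receptor genes Trac, Trbc1 and Trbc2 at 0 as well left 67 and 37 of all members. The shares were then 0.215% and 0.128% and the log2 ratio turned to 0.74. Most of the 67 in CFC-14d were members with 2 or 3 rule genes, for most of which the name NK was not borne out. Strict barcodes alone were not filtered this way, so the 0.74 is not a ratio of strict NK shares. In single-cell data of 1 library a group, a difference between animals, between dissections and between conditions cannot be told apart.

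The other lymphocytes stood in the same order. A T cell gate held 156 barcodes (0.501%) of CFC-14d and 265 (0.920%) of Random-14d, a log2 ratio of -0.88 (-1.17 to -0.59). A B cell gate held 229 (0.735%) and 389 (1.35%), a log2 ratio of -0.88 (-1.12 to -0.64). Per 100 T cell barcodes there were 34.0 strict NK barcodes in CFC-14d and 36.2 in Random-14d, and 71.2 and 41.9 NK barcodes when all members were counted. Microglia made up 38.5% and 43.7% of the libraries. Haemoglobin made up 4.11% and 7.75% of all UMIs in CFC-14d and Random-14d, and its part in the lymphocyte shares was not tested.

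**Figure D4:**
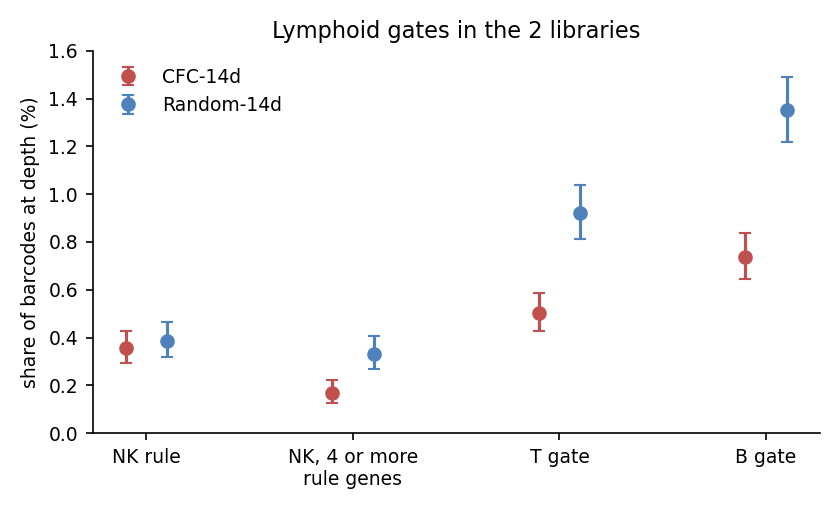
Share of barcodes at depth (vertical axis, percent) that met the NK rule, the NK rule with 4 or more rule genes, and gates for T and B cells, in CFC-14d (red) and Random-14d (blue), with exact binomial 95% intervals. The strict NK, T and B points of CFC-14d lie below those of Random-14d, at 0.170%, 0.501% and 0.735% against 0.333%, 0.920% and 1.35%.

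Levels of genes were compared between the libraries from counts summed over barcodes, as log2 ratios of CPM, CFC-14d over Random-14d. In the strict barcodes 599 genes had at least 100 counts, and 15.0% of them differed 1.5-fold or more, 10.4% higher and 4.67% lower in CFC-14d. Over all members 21.3% of 835 genes did so, 11.1% higher and 10.2% lower. Because a few large barcodes carry much choroid plexus RNA and take up the total, some strict values are followed by those without the 8% of members of highest UMI count, which leaves 47 and 87 barcodes. In that set 8.27% of 399 genes differed 1.5-fold or more, 4.76% higher and 3.51% lower.

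Granzyme B stood higher in CFC-14d. Gzmb, the protease that triggers caspases in target cells, had 0 to 27 UMIs per strict barcode in CFC-14d, with a median of 3, and 0 to 85 in Random-14d, with a median of 1. It was found in 41 of 53 and 51 of 96 barcodes, and 16 and 8 barcodes held 5 or more UMIs. The ranges overlapped, and 85 of the 205 counts of Random-14d came from 1 barcode. Its level was 1285 CPM in CFC-14d and 762 CPM in Random-14d, a log2 ratio of 0.75 (0.48 to 1.03), and 1.68 (1.36 to 2.01) without the largest barcodes. With each barcode weighted equally the log2 ratio was 1.23. After thinning to 1000 UMIs, 59.6% of 52 barcodes in CFC-14d and 31.2% of 93 in Random-14d held Gzmb. In a separate draw without the largest barcodes 65.2% of 46 and 41.7% of 84 did. Each is 1 random draw. The share of Random-14d moved from 31.2% to 41.7% although the 84 barcodes are part of the 93, and the spread between draws was not measured. In the microglia gates Gzmb stood at 0.840 and 0.0711 CPM, and in the T cell gates at 74.2 and 70.0 CPM.

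Gzmb was compared within the Gzma groups. In Gzma-negative barcodes it had 65 counts in 6 of 11 barcodes of CFC-14d, 27 of them in 1 barcode, and 8 counts in 8 of 24 barcodes of Random-14d, which gives 1921 and 119 CPM and a log2 ratio of 3.93 (2.95 to 5.28). In Gzma-positive barcodes it had 173 counts in 33 of 36 barcodes and 196 counts in 42 of 69. That gives a log2 ratio of 0.25 (-0.05 to 0.55) with the barcode of 85 counts included. Of the 144607 UMIs of the Gzma-positive barcodes of CFC-14d, 44029 came from 1 barcode rich in Ttr, which lowers their CPM. The ratios within the groups were not taken without the largest barcodes, so 3.93 and 0.25 are not on an equal footing. Whether the groups differ in this ratio was not tested. A second granzyme, Gzmc, was carried by single barcodes. Its 138 counts in Random-14d included 130 from the same barcode that held 85 of Gzmb, and its 16 counts in CFC-14d included 13 from 1 barcode, so its log2 ratio of -2.63 rests on those and turned to 1.77 without the largest barcodes.

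Srgn, which encodes the granule proteoglycan serglycin and is also expressed by myeloid cells, stood lower in CFC-14d. It had 72 counts in 34 strict barcodes and 168 counts in 64, a log2 ratio of -0.78 (-1.21 to -0.38), and -0.55 (-1.03 to -0.11) without the largest barcodes. Gzma and Nkg7 are rule genes and are given as a description. Gzma stood at 6613 and 5521 CPM, a log2 ratio of 0.26 (0.15 to 0.37), and 0.44 (0.33 to 0.55) without the largest barcodes. Over all members it stood at -0.09 (-0.20 to 0.01). Prf1 was at 0.12 (-0.22 to 0.46) and Nkg7 at -0.15 (-0.32 to 0.02), and the protease gene Ctsw at -0.07 (-0.45 to 0.30). The summed level of the 20 granule and death ligand genes, rule genes included, was 13201 and 12264 CPM, a log2 ratio of 0.11 (0.03 to 0.18), and 0.38 (0.30 to 0.46) without the largest barcodes. Over all members its direction was the opposite, at -0.25 (-0.32 to -0.18). Of the 9 of them with at least 100 counts, 5 were higher and 4 lower, with a median of 0.12 against 0.04 over all genes tested.

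The receptor genes of the rule are given as a description, since strict barcodes were chosen for holding them. Ncr1, which encodes the activating receptor NKp46, was found in 46 of 53 and 77 of 96 barcodes, with a log2 ratio of -0.01 (-0.37 to 0.34). Klrb1c, which encodes NK1.1, was at -0.02 (-0.44 to 0.39), Klre1 at -0.11 (-0.43 to 0.21), and Klrd1, which encodes CD94, at -0.13 (-0.44 to 0.18). Klrk1, which encodes NKG2D and was not in the rule, was at -0.26 (-0.63 to 0.10), and at -0.19 without the largest barcodes. Over all members the same 5 genes stood lower in CFC-14d, at -0.41, -0.48, -0.53, -0.60 and -0.79, beside its larger number of weak members. Among Ly49 genes Klra7 was at 0.72 (0.16 to 1.30), Klra4 at 0.37 (0.01 to 0.73) and Klra8 at -0.45 (-0.83 to -0.09). The 21 activating receptor and adaptor genes, the rule genes Ncr1 and Klrb1c included, summed to 8205 and 8964 CPM. Their log2 ratio was -0.13 (-0.22 to -0.04), and 0.03 (-0.06 to 0.13) without the largest barcodes. With all strict barcodes, 2 of 8 tested members were higher and 6 lower.

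Among maturation genes, Ly6c2, a surface protein of mature NK cells and of monocytes, had 102 counts in 21 strict barcodes of CFC-14d and 73 in 30 of Random-14d. Its log2 ratio was 0.91 (0.47 to 1.37), and 1.06 (0.60 to 1.53) without the largest barcodes. Over all members with Trac, Trbc1 and Trbc2 at 0, the ratio of Ly6c2 turned to -0.45 and that of the mature NK list to -0.35. In CFC-14d most barcodes of that set are members with 2 or 3 rule genes. Strict barcodes were not filtered this way, so these values do not show what the strict ratios would become. The T cell gates held Ly6c2 at 354 and 466 CPM. The 10 mature NK genes summed to 3284 and 2526 CPM, a log2 ratio of 0.38 (0.22 to 0.54), and 0.76 (0.59 to 0.93) without the largest barcodes, and the list includes both Gzmb and Ly6c2. Itga4, the integrin chain that binds VCAM-1 on vessels, was at 0.54, and at 0.67 (0.19 to 1.15) without the largest barcodes. Cd27, which marks less mature NK cells, was found in 3 of 53 strict barcodes of CFC-14d and 9 of 96 of Random-14d, too few to compare.

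The chemokine genes Ccl3, Ccl4 and Xcl1 stood lower in CFC-14d. Ccl3, which draws monocytes and other leukocytes, had 59 counts in 21 strict barcodes of CFC-14d, at most 8 in one, and 183 counts in 46 barcodes of Random-14d, at most 15. Its log2 ratio was -1.19 (-1.65 to -0.77), and -0.99 (-1.48 to -0.54) without the largest barcodes. Ccl4, its close relative, was at -0.55 (-0.77 to -0.34), with 1381 and 2025 CPM. Microglia express both: Ccl3 stood at 222 and 391 CPM and Ccl4 at 391 and 544 CPM in the microglia gates, in the same order between the libraries, and the part of microglial RNA in the NK values was not tested. Xcl1 was at -0.70 (-0.99 to -0.43), with 783 and 1278 CPM. Within the groups, with the largest barcodes kept, the log2 ratio of Xcl1 was -0.03 (-0.41 to 0.33) in Gzma-negative barcodes. In Gzma-positive ones it was -1.33 (-1.87 to -0.84). Ccl5 was at 0.16 (0.06 to 0.27) in strict barcodes and at -0.21 (-0.32 to -0.11) over all members. The interferon gamma gene Ifng was found in 16 of 53 and 27 of 96 strict barcodes.

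**Figure D5:**
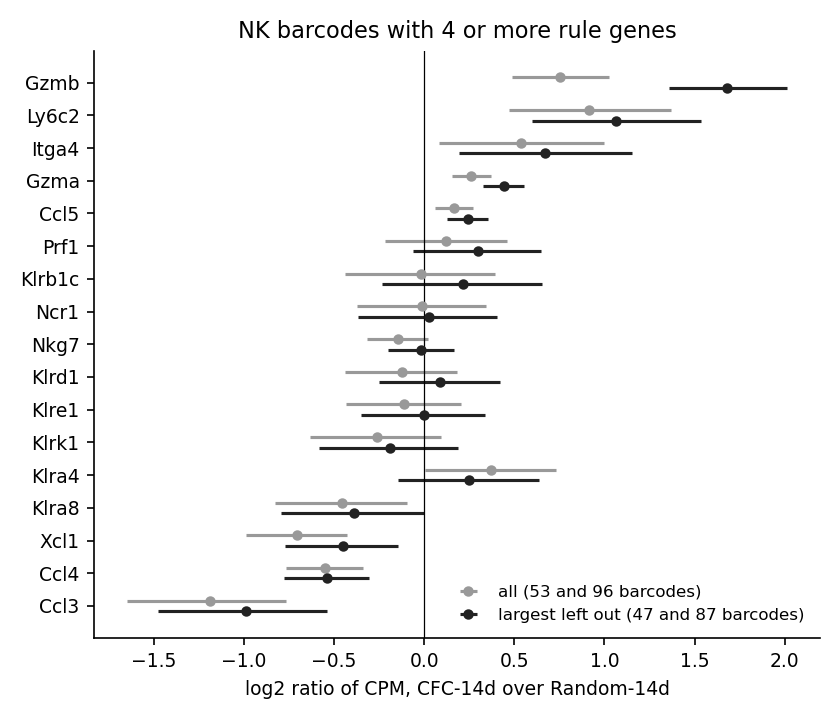
Log2 ratio of CPM, CFC-14d over Random-14d (horizontal axis), of 17 NK genes in strict NK barcodes, with all barcodes in grey and without the largest in black. Bars are 95% intervals of counting error. Gzma, Nkg7, Ncr1, Klrb1c, Klre1 and Klrd1 are rule genes. Gzmb and Ly6c2 lie above 0 and Xcl1, Ccl4 and Ccl3 below it in both sets.

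Of the genes furthest apart over all members, several came from single barcodes of Random-14d. The antigen presentation genes H2-Ab1, H2-Aa, H2-Eb1 and Cd74 had log2 ratios of -5.08, -4.28, -4.33 and -3.85, and 3 barcodes held 91.6%, 93.9%, 93.9% and 88.0% of their counts in Random-14d. The lysozyme gene Lyz2 was at -2.58, with 196 of its 226 counts in Random-14d in 2 barcodes, of 100 and 96 UMIs. Counts of Cd7 and Trbc2, a T cell receptor constant gene that NK cells also transcribe, were spread over 42 and 37 members of Random-14d, against 15 and 18 of CFC-14d. In strict barcodes Cd7 was at -1.30 (-2.04 to -0.65) and Trbc2 at -1.32 (-2.08 to -0.66). Cebpb, a transcription factor gene of myeloid cells, was at -1.29 over all members. Among the highest were Sdhb, Tcf4, Tuba1a, Psmb5, Drap1, Nucks1, Pcbp1 and Hnrnpk, at 0.60 to 0.82, most of which many cell types express, and Tcf4 turned to -0.40 in strict barcodes.

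In strict barcodes those far apart included, besides those already named, Psmb5 at 0.75, Drap1 at 0.75, S100a11 at 0.66 and Ran at 0.62 on the higher side, and Arglu1 at -0.95, Arhgap45 at -0.95, Dock10 at -0.88 and Klf6 at -0.83 on the lower. Psmb5 is a proteasome subunit, and Arhgap45 and Dock10 regulate small GTPases. Of the remaining lists, the 20 interferon response genes summed to 723 and 1311 CPM, a log2 ratio of -0.86 (-1.15 to -0.58), and -0.39 (-0.71 to -0.08) without the largest barcodes. Only 1 of the 20, Psmb8, had at least 100 counts. It stood at -0.28, with an interval that includes 0, and at -0.01 without the largest barcodes. Ifitm3 had 6 counts in 6 strict barcodes of CFC-14d and 66 in 10 of Random-14d. The 15 genes of MHC class I presentation were at -0.17 (-0.27 to -0.07) and the 20 stress and immediate early genes at -0.29 (-0.38 to -0.19). Without the largest barcodes these stood at 0.01 (-0.10 to 0.12) and -0.06 (-0.17 to 0.05). The 14 glycolysis genes were at 0.50 (0.30 to 0.71). The lists of inhibitory receptors, transcription factors, cytokine receptors and homing receptors stood at 0.01, -0.17, -0.12 and -0.00. The inhibitory list includes the rule gene Klrd1 and the transcription factor list the rule gene Eomes. The lists of the glucocorticoid response and of proliferation stood at 0.07 and 0.01. The immature NK and the residence lists stood at -0.70 and -0.36.

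The receptor named in the title of the series was found in few NK barcodes. Over all 111 members of each library, Csf2rb, the common beta chain of the receptors for IL-3, IL-5 and GM-CSF, had 3 counts in CFC-14d and 4 in Random-14d. Csf2rb2, the mouse beta chain for IL-3 alone, had 1 and 0 counts, and Il3ra, the alpha chain, 3 and 5. Il3 had none in any barcode of the NK, T or microglia gates. For comparison, Csf2rb was detected in 8.94% and 8.59% of microglia-gate barcodes against 2.70% and 3.60% of NK members. With counts this low no difference between the libraries was detectable at this depth.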

How the data were processed

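Single-cell libraries of dissociated dentate gyrus were read as the deposited raw UMI counts per gene and barcode, for which the authors used Cell Ranger; per the file headers its version was 8.0.1. Seurat 5.4.0, GRCm39 and mm39 stand in the submitters' processing notes, without an annotation release. Barcodes with at least 500 UMIs and 300 genes were kept, 31150 in CFC-14d and 28810 in Random-14d, and no doublet caller was run. The members, gene lists and groupings were chosen with earlier results of these data known. Counts were summed over members. Log2 ratios of CPM used 0.5 added counts and genes with at least 100 counts, and 1.5-fold was the call. Shares carry exact Clopper-Pearson intervals, levels exact Poisson intervals and ratios conditional binomial intervals, all at 95%. UMIs count molecules, but intervals cover counting error only. For detection at equal depth barcodes were thinned to 1000 UMIs. Named genes were the rule genes, the IL-3 receptor genes, the leading genes of each list, the most different genes between libraries and the 20 most enriched. Genes named between the Gzma groups were chosen after their values were seen. A few results that meet these rules are not reported here. The ratio script was tested on simulated data. Python 3.11.15, numpy 2.4.6, scipy 1.17.1, pandas 2.3.3 and matplotlib 3.10.9 were used.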

Additional observations from a re-analysis of the deposited data

Results flagged for a closer look

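The same rule was applied to the nuclei, which no comparison above uses. It found 0 of 10966 nuclei at depth in WT-naive, with an exact upper limit of 0.0336%, and 0 of 13209 in WT-CFC, with one of 0.0279%. In the library labelled KO-CFC it found 4 of 8393, or 0.0477% (0.0130 to 0.122), each with exactly 2 rule genes. They stand out because the libraries of the wild-type nuclei held none. Before the excluded genes were applied, 11 nuclei of KO-CFC held at least 2 rule genes, against 0 in WT-naive and 0 in WT-CFC. Most of the 11 were thus lost to genes of other lineages. At the same threshold most dissociated cells of CFC-14d with 2 or 3 rule genes lacked further NK genes, and whether these 4 are NK nuclei was not tested.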

How the results depend on the processing

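The values below are ratios of CFC-14d over Random-14d on the log2 scale unless named otherwise, and set alternatives against all 222 members, for which the list ratios ran from -0.96 (immature NK) to 0.52 (glycolysis). Asking for at least 3 rule genes gave an NK share of 0.196% in CFC-14d, a log2 share ratio of -0.87, 60 genes higher and 35 genes lower. List ratios were then granule genes 0.10, activating receptors -0.17, inhibitory receptors -0.0155, transcription factors -0.15, immature NK -0.76, mature NK 0.36, cytokines -0.15, cytokine receptors -0.12, homing -0.00981, MHC I -0.20 and proliferation -0.0384. The sign turned for Tcf4 -0.49 and Ccl5 0.14. Leaving Nkg7 out of the rule gave an NK share of 0.263% in CFC-14d and 53 genes lower. The lists then stood at granule genes -0.0914, activating receptors -0.35, cytokines -0.33 and MHC I -0.28. Asking for Trac, Trbc1 and Trbc2 at 0 left mostly members with 2 or 3 rule genes in CFC-14d. That setting gave an NK share of 0.215% in CFC-14d and of 0.128% in Random-14d, a log2 share ratio of 0.74 and 51 genes higher. Under it the list ratios were granule genes -0.97, activating receptors -1.23, inhibitory receptors -1.23, transcription factors -0.79, immature NK -1.71, mature NK -0.35, cytokines -1.33, cytokine receptors -0.79, homing -0.45, interferon -1.07, MHC I -0.93 and stress 0.00129. Ly6c2 turned to -0.45. Dropping barcodes with 3 markers of another lineage, which leaves 7 and 5 members since haemoglobin genes are found in nearly all, gave an NK share of 0.0225% in CFC-14d, an NK share of 0.0174% in Random-14d, a log2 share ratio of 0.37, 1 gene higher and 2 genes lower. List ratios there were granule genes 0.51, activating receptors -0.14, inhibitory receptors 0.79, transcription factors -0.0882, immature NK -1.24, mature NK 0.90, residence 0.88, cytokines -0.19, cytokine receptors 0.44, homing -0.0492, interferon 1.39, MHC I 0.16, stress 0.0747, glucocorticoid 0.62 and proliferation -0.96. Single genes that turned were Ncr1 0.0296, Klrd1 1.15, Tuba1a -0.82, Ccl5 0.22, Klrk1 0.0484, Ctsw 0.97 and Il2rb 1.11. Dropping the 8% of highest UMI count gave 60 genes higher. List ratios were then granule genes -0.10, mature NK 0.33, interferon -0.52 and stress -0.0796. Gzmc turned to 1.19. Asking for at least 4 rule genes gave an NK share of 0.170% in CFC-14d, a log2 share ratio of -0.97 and 28 genes lower. The lists then stood at granule genes 0.11, activating receptors -0.13, inhibitory receptors 0.00820, transcription factors -0.17, immature NK -0.70, mature NK 0.38, cytokines -0.13, cytokine receptors -0.12, homing -0.00455, MHC I -0.17 and proliferation 0.0110. The sign turned for Tcf4 -0.40 and Ccl5 0.16. Dropping barcodes with 3 markers of a lineage other than erythroid, which leaves 61 and 84, gave an NK share of 0.196% in CFC-14d, an NK share of 0.292% in Random-14d, a log2 share ratio of -0.57, 20 genes higher and 20 genes lower. Under it the list ratios were granule genes 0.11, activating receptors -0.21, inhibitory receptors -0.0512, transcription factors 0.0277, immature NK -0.52, mature NK 0.58, residence -0.23, cytokines -0.21, cytokine receptors -0.0802, homing 0.14, interferon -0.12, MHC I -0.0836, glucocorticoid 0.35 and proliferation 1.06. Ratios that turned were Gzmc 1.44, Lyz2 0.25, Ccl5 0.0582 and Ctsw 0.0389. At least 4 rule genes without the 8% of highest UMI count gave an NK share of 0.151% in CFC-14d, an NK share of 0.302% in Random-14d, a log2 share ratio of -1.001, 19 genes higher and 14 genes lower. List ratios there were granule genes 0.38, activating receptors 0.0344, inhibitory receptors 0.16, transcription factors 0.0331, immature NK -0.55, mature NK 0.76, residence -0.10, cytokines -0.0213, cytokine receptors 0.0751, homing 0.24, interferon -0.39, MHC I 0.00996, stress -0.0608 and proliferation -0.12. Single genes that turned were Ncr1 0.0259, Klrb1c 0.22, Klrd1 0.0883, Cd74 0.10, Gzmc 1.77, Ccl5 0.24, Ctsw 0.10, Tyrobp 0.0583 and Il2rb 0.10. It further gave Gzma-negative over Gzma-positive ratios of mature NK in CFC-14d -0.99 and immature NK in Random-14d 1.89. Totals without haemoglobin and mitochondrial genes gave list ratios of granule genes -0.34, activating receptors -0.59, cytokines -0.60 and stress -0.30. Scaling by the median ratio gave list ratios of granule genes -0.17. Weighting each barcode equally gave 157 genes lower. List ratios were then granule genes -0.41, activating receptors -0.69, inhibitory receptors -0.63, transcription factors -0.51, immature NK -1.19, cytokines -0.79, interferon -0.39, MHC I -0.56, stress -0.0307 and proliferation 0.0321. A minimum of 50 counts gave 237 genes higher and 212 genes lower. A minimum of 200 counts gave 52 genes higher and 36 genes lower. Leaving microglia out of the denominator gave an NK share of 0.579% in CFC-14d and an NK share of 0.684% in Random-14d. Grouping all members by Gzma gave Gzma-negative over Gzma-positive ratios of immature NK in CFC-14d 2.39, mature NK in CFC-14d -1.28 and Gzmb in CFC-14d -0.32. Counting Gzma-positive from 10 UMIs gave Gzma-negative over Gzma-positive ratios of immature NK in CFC-14d 3.64 and immature NK in Random-14d 1.81. At least 4 rule genes without barcodes of another lineage gave Gzma-negative over Gzma-positive ratios of residence in CFC-14d 2.85, immature NK in CFC-14d 2.26 and mature NK in CFC-14d -1.09. Asking for at least 4 rule genes, dropping other lineages without counting erythroid markers, their combinations and the alternatives for the Gzma groups were chosen after seeing the data. Under the 5 alternatives run for the Gzma groups the residence list stayed higher and the mature NK list lower in Gzma-negative barcodes in both libraries. Counts at depth limit genes under 100 counts, and the causes of these shifts were not tested. No paired analysis was possible because each group has 1 library. Leaving out a replicate was not possible for the same reason.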
